A study of Caenorhabditis elegans with 2 samples.

Results

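The translation elongation factor genes of Caenorhabditis elegans described here are eef-1A.1, eef-1A.2, eef-1B.1, eef-1G and eef-2, 5 of 19973 nuclear protein-coding genes in the annotation. They were taken by name, and for each the ChIP-seq regions were read whose summit lay within 500 bp of the annotated 5′ end, and within 1 kb. The set was selected on the signal and rank of regions at these 5′ ends in earlier results of these data, so the presence, height and rank of its peaks are a description and were not tested. The assay was chromatin immunoprecipitation followed by sequencing from whole young adult hermaphrodites of strain YL485. Their age is given as unknown, and whole animals do not show which tissue a signal comes from. The worms were a stable transgenic line in which SNPC-1.3, the product of F08F3.9, carries a GFP-FLAG tag at its C terminus. Chromatin was sonicated and precipitated with an antibody to GFP. The labels used here do not name the promoter of the tagged gene. There was 1 group, with 2 samples that the labels number as biological replicates 1 and 2. No second genotype, stage or treatment is among these samples, so all comparisons are between genes within these animals.

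During translation elongation, eEF1A in its GTP-bound form delivers each charged tRNA to the ribosome. The eEF1B complex, to which the products of eef-1B.1 and eef-1G belong, exchanges the GDP left on eEF1A for GTP, and eEF2 moves the ribosome along the mRNA codon by codon. Genes for these factors are transcribed by RNA polymerase II and are among the most highly expressed in growing tissues such as the germline. SNAPc, the complex to which SNPC-1.3 is related, binds promoters of small nuclear RNA and spliced leader RNA genes, and in nematodes SNPC-1.3 is known for piRNA transcription in the male germline.

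Each of the replicate lists and the pooled list held 30000 candidate regions, and 1676 regions passed the irreproducible discovery rate (IDR) threshold of the submitters. These are called IDR peaks here, and in the pooled list they held the first 1676 ranks by signal. Signal is the submitters' value per region in the unit of their caller, and it is compared only within a list, by rank or by multiples of the list's median. That median was 13.5 in the pooled list, 6.33 in replicate 1 and 10.4 in replicate 2. The lists carry no read counts, so the depth of each sample is unknown. All coordinates are 1-based positions on ce11.

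For the members on chromosomes III, V and X, a stretch at the strongest pooled candidate is shown, on the strand of the gene and 5′ to 3′. At eef-1A.2 that candidate is not an IDR peak. The stretches are from the RefSeq sequence of the same assembly, WBcel235. For the paralogous eEF1A genes the window spans 100 bp to each side of the pooled summit, and for eef-1G and eef-1B.1, whose summits were at the 5′ end itself, it is the 150 bp that precede that end. Capitals mark bases that lie in an annotated short RNA gene. These are the first 96 bases of cel-mir-5549 at eef-1A.1, 79 bases of the ncRNA gene F54H12.9 at eef-1B.1 and 108 bases of the ncRNA gene R03G5.8 at eef-1A.2, with both ncRNA genes annotated on the opposite strand.
eef-1A.1 (chrIII:6971990-6972190, minus strand): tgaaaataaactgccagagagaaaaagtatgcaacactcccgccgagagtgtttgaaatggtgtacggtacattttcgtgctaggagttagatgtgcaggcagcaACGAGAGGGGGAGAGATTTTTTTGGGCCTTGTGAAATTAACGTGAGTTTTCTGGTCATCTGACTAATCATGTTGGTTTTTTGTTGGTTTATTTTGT
eef-1A.2 (chrX:7823292-7823492, plus strand): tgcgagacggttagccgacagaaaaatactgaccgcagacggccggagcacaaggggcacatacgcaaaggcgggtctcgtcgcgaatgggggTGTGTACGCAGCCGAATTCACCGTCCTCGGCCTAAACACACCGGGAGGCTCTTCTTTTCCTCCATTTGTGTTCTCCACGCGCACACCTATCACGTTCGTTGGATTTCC
eef-1G (chrV:10965569-10965718, plus strand): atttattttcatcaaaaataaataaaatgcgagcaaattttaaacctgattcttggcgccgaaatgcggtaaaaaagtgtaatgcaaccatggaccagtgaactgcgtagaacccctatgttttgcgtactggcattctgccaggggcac
eef-1B.1 (chrIII:7973387-7973536, minus strand): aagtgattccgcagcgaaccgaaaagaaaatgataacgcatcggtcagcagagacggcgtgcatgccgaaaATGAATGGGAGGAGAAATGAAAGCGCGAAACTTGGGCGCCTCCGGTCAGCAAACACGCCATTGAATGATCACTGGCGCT

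An IDR peak lay within 500 bp at 4 of the 5 genes, eef-1A.1, eef-1B.1, eef-1G and eef-2. Over all 19973 genes 5.94% did (1187 genes). At eef-1A.2 there was only a candidate region well below the threshold. All 5 genes had a candidate there in the pooled list, in replicate 1 and in replicate 2, against 35.1%, 36.4% and 36.3% of all genes in these lists. The count was again 4 of 5 within 1 kb, against 7.78% of all genes, and it was 3 of 5 within 250 bp, where eef-1A.1 was lost, against 3.68%. A pooled signal of 100 or more was found at 3 of the 4 peaks, and at 10.8% of the 1187 genes. The set was selected on signal, and this limit lies just below the values of eef-2 (101) and eef-1G (105). That contrast is therefore a description only. Among the 1676 regions of highest signal in a single replicate the count was 4 of 5 in replicate 1 and 4 of 5 in replicate 2, against 5.10% and 5.79% of all genes. The same 4 genes made up each count of 4. In the plot of ranks, the 4 genes with a peak lie above the line of rank 1676 in every list, with eef-1B.1 the nearest to it. The gene eef-1A.2 lies below the line in every list.

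**Figure D1:**
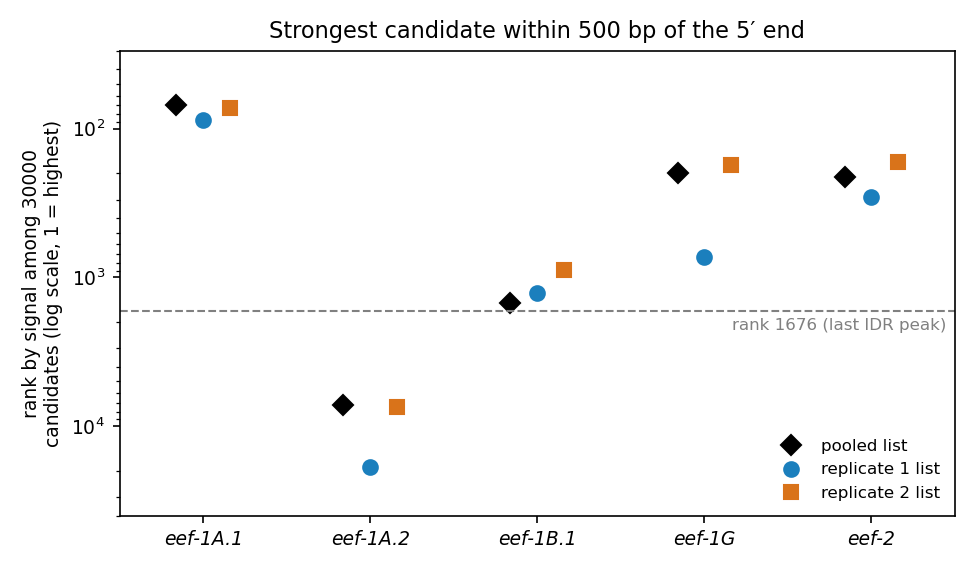
Rank by signal (vertical axis, log scale, 1 is the highest) of the strongest candidate within 500 bp of the 5′ end of each elongation factor gene, in the pooled list (diamonds) and in replicates 1 (circles) and 2 (squares). The dashed line is rank 1676, the last IDR peak in the pooled list. The gene eef-1A.1 has ranks of 70 to 88, and eef-1A.2 ranks of 7230 to 18777.

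The eEF1A gene eef-1A.1 (WBGene00001168, III 6970026 to 6971712, minus strand) had the highest peak of the set. Its pooled signal was 149.9, 11.1 times the list's median, at III 6972054 to 6972175. It ranked 70 of 30000 in the pooled list, 88 in replicate 1 and 73 in replicate 2. The signal was 50.1 in replicate 1 and 103 in replicate 2, which were 7.91 and 9.96 times the medians of those lists. It was thus in the top 0.293% of candidates in replicate 1 and the top 0.243% in replicate 2. Among the 6247 distinct regions that were the strongest pooled candidate of some protein-coding gene, it was number 20. The pooled region was 122 bp wide, narrower than the usual 276 bp, as were 181 of the 1676 IDR peaks. Its summit was not at the 5′ end but upstream of it, between genes, at -378 bp in the pooled list, -404 bp in replicate 1 and -385 bp in replicate 2 (-394 ± 13.4 bp, SD, n = 2).

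The paralogue eef-1A.2 (WBGene00001169, X 7823654 to 7825769, plus strand) encodes eEF1A as well, and 1305 of the 1389 bases of its coding sequence (94.0%) are identical to those of eef-1A.1. Its strongest candidate (X 7823254 to 7823529) had a pooled signal of 18.8, 1.39 times the list's median, and rank 7230. The signal was 5.65 in replicate 1, at 0.893 times that list's median and rank 18777, and 14.2 in replicate 2, at 1.37 times the median and rank 7428. The deposited −log10 q-value of this region was 0.689 in the pooled list, while that of eef-1A.1 was 3.42. This is the highest value in the list, and the peaks of eef-1G and eef-2 had it too. The gene eef-1A.1 ranked ahead of eef-1A.2 in every list. IDR peaks were found at 0.696% of genes on the X chromosome, where eef-1A.2 lies (19 of 2731), and at 6.77% of genes on the autosomes (1168 of 17242).

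Sequence shared between the paralogues can divide or displace reads, so uniqueness was measured as the share of 31-mers with no other copy in the genome, both strands counted. In the 201 bp windows at the pooled summits it was 100% for eef-1A.1, for eef-1A.2 and for the other members. Within 500 bp of the 5′ end it was 96.4% for eef-1A.1 and 96.4% for eef-1A.2. Over the whole gene it was 89.5% for eef-1A.1 and 91.7% for eef-1A.2. It was 97.9% for eef-1B.1 and 100% for eef-1G and eef-2. The summit windows are therefore made of unique sequence, while signal inside the eEF1A genes is uncertain.

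The gene eef-1B.1 (WBGene00018846, III 7972382 to 7973386, minus strand) encodes a nucleotide exchange subunit of eEF1B and had the lowest IDR peak of the set. The pooled signal was 42.5, at rank 1484, and the lowest signal of any IDR peak was 39.8. The peak lay at III 7973264 to 7973539. The signal was 17.7 in replicate 1, at rank 1265 and 2.80 times the list's median, and 38.7 in replicate 2, at rank 892 and 3.74 times the median. The summit was just upstream of the 5′ end, at -16 bp in the pooled list, -6 bp in replicate 1 and -56 bp in replicate 2 (-31.0 ± 35.4 bp, SD, n = 2). The other eEF1B exchange gene, eef-1B.2, lay on the far side of the threshold, with a pooled signal of 36.2 and rank 1956.

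The gene eef-1G (WBGene00008920, V 10965719 to 10967922, plus strand) encodes the gamma subunit of eEF1B. Its peak (V 10965579 to 10965854) had a pooled signal of 105, 7.75 times the list's median, and rank 198. The replicates placed it less evenly than those of the other peaks: the signal was 22.6 at rank 731 in replicate 1, 3.57 times the median, and 73.8 at rank 176 in replicate 2, 7.12 times the median. The summit was at the 5′ end, at -2 bp in the pooled list, -12 bp in replicate 1 and 2 bp in replicate 2 (-5.0 ± 9.9 bp, SD, n = 2). Its 5 annotated transcripts start at 5 positions, the farthest 254 bp into the gene, and the pooled summit lay upstream of all of them.

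The gene for eEF2, eef-2 (WBGene00001167, I 9163531 to 9166952, plus strand), had a peak of similar height at I 9163376 to 9163651. The pooled signal was 101, 7.47 times the list's median, at rank 212. It was 32.4 in replicate 1, at rank 288 and 5.12 times the median, and 74.6 in replicate 2, at rank 169 and 7.20 times the median. The summit was at -17 bp in the pooled list, -17 bp in replicate 2 and 14 bp in replicate 1 (-1.50 ± 21.9 bp, SD, n = 2). By pooled rank the order was eef-1A.1, eef-1G, eef-2, eef-1B.1 and eef-1A.2. The neighbours eef-1G and eef-2 changed places between the lists, with eef-2 ahead in replicate 1 and in replicate 2 and eef-1G ahead in the pooled list, while the other steps of the order held in every list.

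Within the 500 bp window, the summits lay in different places. At 3 of the 4 genes, eef-1B.1, eef-1G and eef-2, the IDR summit lay at most 20 bp from the gene's 5′ end, which was so at 49 of all 1187 genes with an IDR peak (4.13%). The limit of 20 bp lies just beyond the summits of these members, so this contrast is a description only. In replicate 2 the summit of eef-1B.1 was at -56 bp, outside that limit. Over those 1187 genes the median was -192 bp, and at 1074 of them the summit was upstream. At eef-1A.1 it was farther out than that median. The replicate summits lay 14 to 50 bp apart at the 5 genes, and at the 1161 genes with an IDR peak and a candidate in both replicates the median gap was 27 bp (quartiles 12 and 53 bp). The difference between a summit at -16 bp and one at -2 bp is therefore within the spread of the replicates, and the difference between these and -378 bp is not. Positions refer to annotated ends, and the later starts annotated for eef-2, at 46 and 451 bp, would put its summit at -63 and -468 bp.

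**Figure D2:**
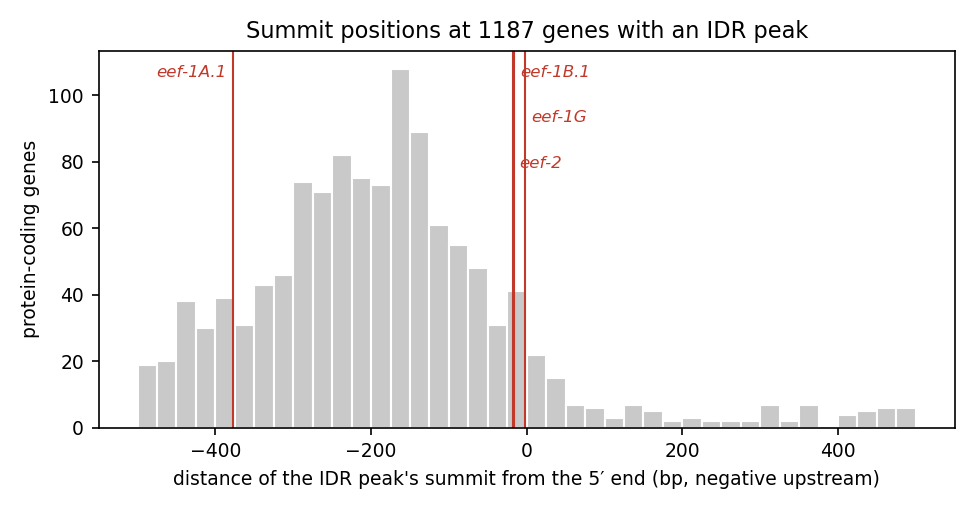
Number of protein-coding genes (vertical axis) by the distance of the IDR summit from the annotated 5′ end (horizontal axis, bp, negative upstream), in bins of 25 bp, for the 1187 genes with an IDR peak within 500 bp. Red lines mark elongation factor genes: eef-1B.1, eef-1G and eef-2 at -16, -2 and -17 bp and eef-1A.1 at -378 bp.

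All 4 peaks lay between divergent genes, so each was also within 500 bp of the 5′ end of another gene and cannot be given to either alone. The nearest upstream protein-coding gene of eef-1A.1 is rfc-4, a subunit of the clamp loader of DNA replication, whose 5′ end is 541 bp away. The summit was at -163 bp from the 5′ end of rfc-4, closer to it than to eef-1A.1. At eef-1B.1 the divergent gene is aco-2, for mitochondrial aconitase, at 331 bp, and the summit was at -315 bp from aco-2. At eef-1G it is ctf-4, at 180 bp, with the summit at -178 bp from it. At eef-2 it is clsp-1, a homologue of the replication checkpoint protein Claspin, at 265 bp, with the summit at -248 bp from it. In these last 3 pairs the summit was thus at the elongation factor's end of the shared interval.

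The gene without an IDR peak was also the one without a divergent protein-coding gene within 1 kb. Upstream of eef-1A.2 the nearest protein-coding gene is sek-1, on the same strand and 2617 bp away, and the nearest divergent 5′ end, of R03G5.6, is 6730 bp away. Over all genes 17.7% had a divergent protein-coding 5′ end within 1 kb upstream, and among genes with an IDR peak 54.3% did. An IDR peak was found at 18.2% of genes with such a neighbour and at 3.30% of genes without one. A peak counts for every gene whose 5′ end is within 500 bp, and 887 IDR peaks made up the 1187 genes with a peak. A peak between divergent genes can thus count for both, so these shares depend in part on the rule of assignment. These shares were not tested. Chromosome, arrangement and the short RNA gene near the summit differ together between the eEF1A genes, and they cannot be told apart with a single gene pair. Whether any of them has a part in the difference was not tested.

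**Figure D3:**
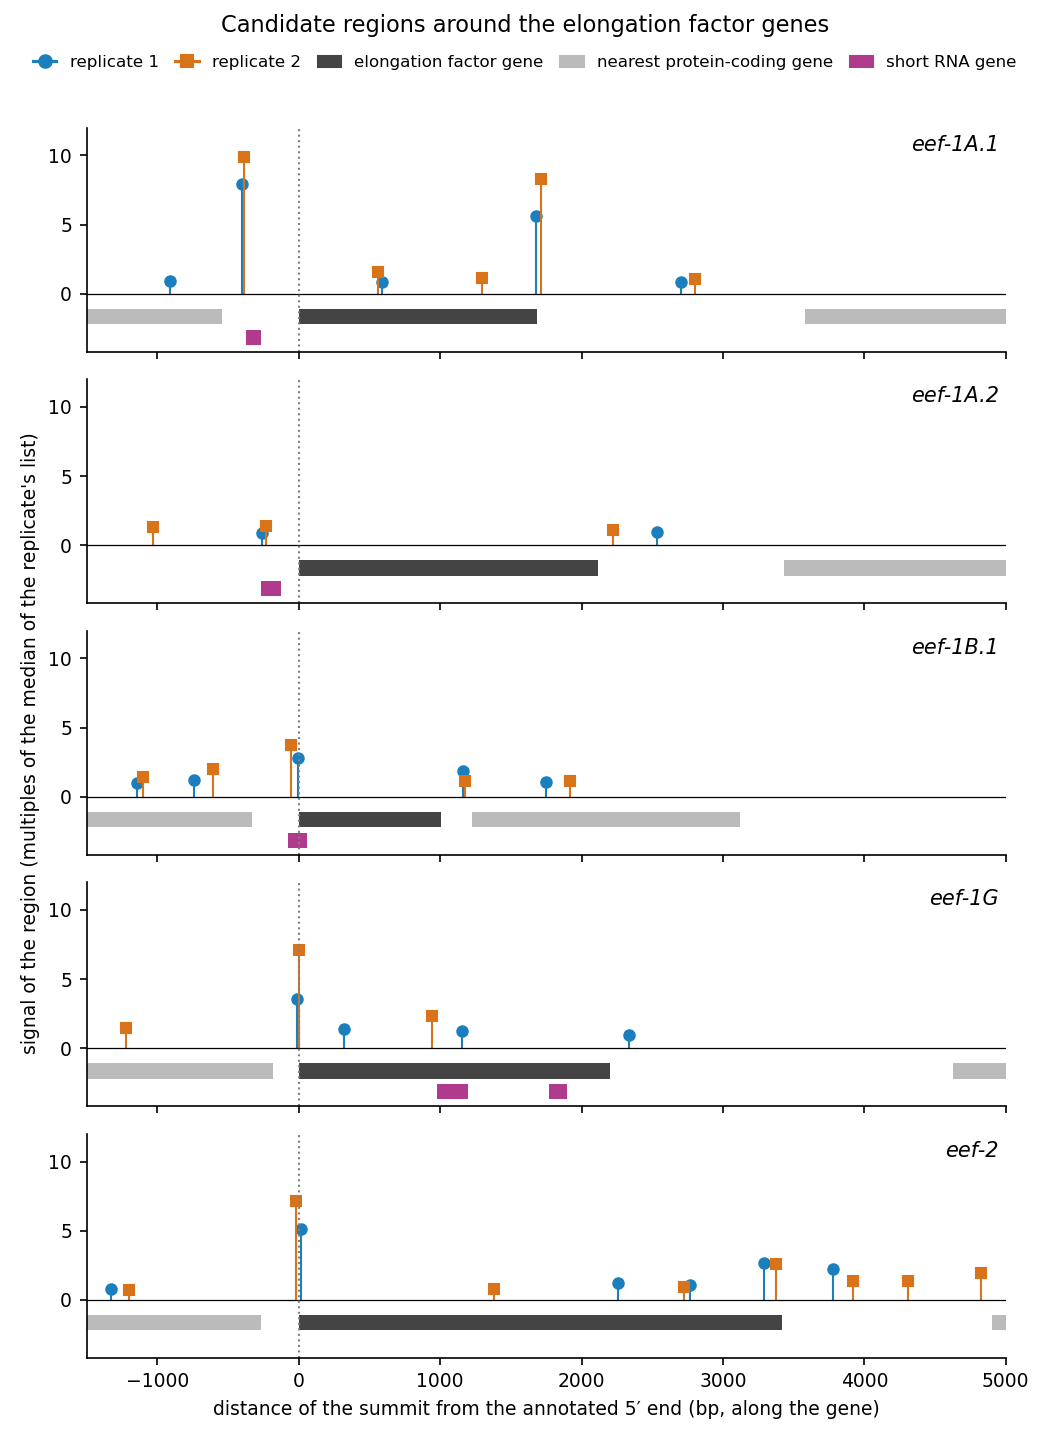
Candidate regions of replicates 1 and 2 around each elongation factor gene, by distance of the summit from the 5′ end (horizontal axis, bp) and signal in multiples of the median of the replicate's list (vertical axis). Bars under each plot show the gene (dark), the nearest non-overlapping protein-coding gene on each side (light) and short RNA genes (purple); eef-1A.1 has a high region at each end, eef-1G and eef-2 a high region at the 5′ end, and eef-1A.2 none above 1.37 times the median.

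Short RNA genes, of up to 500 bp, lay in the 500 bp window at 3 of the 5 genes, against 11.1% of all genes and 18.2% of genes with an IDR peak. At eef-1A.1 it was the miRNA gene cel-mir-5549 (III 6971976 to 6972085, minus strand). The summit was at -5 bp from its 5′ end in the pooled list, -31 bp in replicate 1 and -12 bp in replicate 2. This miRNA gene lies between eef-1A.1 and the summit, on the strand of eef-1A.1, so that the summit was nearer to it than to either protein-coding gene. At eef-1B.1 the ncRNA gene F54H12.9 (III 7973327 to 7973465, plus strand) spans the 5′ end, and the summit was inside it. At eef-1A.2 the candidate's summit was inside the ncRNA gene R03G5.8 (X 7823385 to 7823525, minus strand). No short RNA gene lay within 500 bp of the 5′ end of eef-1G or within 1 kb of that of eef-2. Within 1 kb the count was 4 of 5, against 16.7% of all genes. With the 566 IDR peaks left out that had a short RNA gene within 250 bp of the summit, 2 of the 5 genes kept a peak, eef-1G and eef-2, against 4.98% of all genes. The part of the short RNA genes in the peaks of eef-1A.1 and eef-1B.1 was not tested.

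Introns of eef-1G hold the snoRNA genes F17C11.15 (V 10966698 to 10966915) and F17C11.14 (V 10967490 to 10967616). Near F17C11.15, which lies within 1 kb of the 5′ end of eef-1G, there was a pooled candidate of signal 24.2 and rank 4084, with its summit at -29 bp from the 5′ end of the snoRNA gene. In replicate 2 the signal was 24.3, at rank 2243 and -36 bp. In replicate 1 it was 8.01, at rank 8739, with the summit inside the snoRNA gene at 174 bp. No list held a candidate within 250 bp of F17C11.14.

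The 3′ ends were examined after the regions around the genes had been seen. An IDR peak lay within 250 bp of the 3′ end of eef-1A.1 and of eef-2, against 2.57% of all genes and 13.3% of genes with an IDR peak at the 5′ end. A pooled candidate lay there at 4 of the 5 genes, against 26.1% of all genes, and eef-1G had none. That of eef-1B.1, at rank 3141, had its summit at -46 bp from the 5′ end of the next gene, F54H12.5. That of eef-1A.2 had its summit in an ncRNA gene, at rank 22798 and 0.801 times the list's median. The peak at the 3′ end of eef-1A.1 (III 6970001 to 6970073) had 8.78 times the pooled list's median signal and rank 129. It had 5.59 times the median and rank 236 in replicate 1, and 8.32 times the median and rank 112 in replicate 2, so it was high in both. The pooled summit was 18 bp beyond the 3′ end, in the coding sequence of F31E3.12, an overlapping gene on the other strand, and 618 bp from the 5′ end of that gene. The peak at the 3′ end of eef-2 (I 9166652 to 9166927) had a pooled signal of 42.9 and rank 1457, with ranks of 1430 in replicate 1 and 1840 in replicate 2. The pooled summit was in the 3′ UTR. The 201 bp windows at both 3′ summits held no 31-mer that occurs elsewhere in the genome.

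Within the coding sequences of the members, no candidate of the pooled list was an IDR peak. In the coding sequence of eef-1A.1 the region 562 bp from the 5′ end, which is just outside the window, had a pooled signal of 23.6 and rank 4292. Its rank was 20112 in replicate 1 and 5484 in replicate 2. Just outside the window of eef-1B.1, at -642 bp, there was a region of signal 18.5 and rank 7482, in an intron of aco-2. In the coding sequence of eef-2 the pooled regions had ranks of 19374 and 14459.

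Matches to 4 motifs were sought on either strand in the 201 bp around each pooled summit. CTGTTTCA, a motif of piRNA promoters, was at 0 of the 5 summits and at 0.902% of the 887 IDR peaks near protein-coding 5′ ends. GTTCGANNC, a core of the B box of tRNA genes, was at 0 of 5 and at 4.40% of these peaks. TATAAA, the TATA box, was at 0 of 5 and at 19.1%. TTTCAG, the splice acceptor, which shares TTTCA with the first motif, was at 1 of 5, eef-1G, and at 29.0%. None of the 4 motifs was in the printed stretches. The GC content of the 201 bp windows was 41.3% at eef-1A.1, 57.2% at eef-1A.2, 49.8% at eef-1B.1, 47.8% at eef-1G and 41.8% at eef-2, while the 887 peaks had a median of 37.8% (quartiles 34.3 and 42.3%). The 5 windows were thus all above that median, and 3 of them above the upper quartile. The windows compared are unlike, however. Those of eef-1B.1, eef-1G and eef-2 span the 5′ end, while most IDR summits at genes lie upstream, and eef-1A.2 has no IDR peak.

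Genes of nearest rank were sought by the sum of the absolute differences in log2 rank over the 2 replicates, among 1153 other genes with an IDR peak of their own and a candidate in both. The genes that share the members' peaks, rfc-4, aco-2, ctf-4 and clsp-1, have the same ranks as the members and were left out. For eef-1A.1 these were syp-4, a component of the synaptonemal complex, and its divergent neighbour H27M09.5, which share a peak (ranks 92 and 97 in replicates 1 and 2, sum 0.47). For eef-1G they were atp-1, for a subunit of ATP synthase, and mcrs-1, which also share a peak (ranks 767 and 167, sum 0.15). The summit of that peak was 2 bp downstream of the 5′ end of atp-1. For eef-2 they were eif-3.C, for a subunit of the initiation factor eIF3 (ranks 307 and 194, sum 0.29), and C17G10.10 (ranks 310 and 198, sum 0.33). For eef-1B.1 they were C37A2.8 and C15C6.3, each with a sum of 0.06. Likeness of rank says nothing of shared function.

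The share of genes with a peak varied widely among other lists of translation genes, as the bar plot shows, and no difference between lists was tested. Among 4 other cytosolic elongation genes, iff-1 and iff-2 had an IDR peak within 500 bp. Both encode eIF5A, which helps the ribosome past difficult stretches. The signal was 62.7 at iff-1, with the summit 306 bp downstream of the 5′ end, and 44.7 at iff-2, at -62 bp. The peak of iff-2 was uneven between the samples, at rank 6493 in replicate 1 and 957 in replicate 2. The gene for eEF2 kinase, efk-1, had none, with a candidate at rank 17512. Of the release factor genes erfa-3, for eRF3, had one of signal 46.4 and erfa-1, for eRF1, had none.

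The list of initiation factor genes outside eIF3 also holds pab-1 and pab-2, for poly(A)-binding proteins, neither of which had an IDR peak. Of its 23 genes that were found in the annotation, 4 had an IDR peak. The highest was at drr-2, an eIF4H homologue, with a signal of 132 and ranks of 145 in replicate 1 and 91 in replicate 2. The gene set-16 shares this peak, with the summit at -160 bp from its 5′ end and -186 bp from that of drr-2. The peak of drr-2 was followed by those of the eIF4E gene ife-3 (76.6), eif-1 (53.8) and the eIF4A gene inf-1 (47.5). The peak of inf-1 ranked 13207 in replicate 1 and 713 in replicate 2. Of 20 genes for cytosolic aminoacyl-tRNA synthetases, which charge the tRNAs that eEF1A carries, 1 had an IDR peak. It was the lysyl-tRNA synthetase gene kars-1 (signal 45.0), and this count is near the 5.94% of all genes. Of 5 mitochondrial elongation factor genes gfm-1 had a peak (48.2), and of 4 genes for elongation factor-like GTPases ZK1236.1 did (41.6). The ribosomal protein genes had an IDR peak at 32 of 50 for the large subunit and at 28 of 31 for the small subunit.

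The peaks of the 4 elongation factor genes had a median signal of 103, while the median was 73.8 for the large-subunit and 77.8 for the small-subunit ribosomal protein genes and 57.8 for all 1187 genes. Their median summit distance was -16.5 bp, against -279 and -271 bp for the ribosomal protein genes. The medians of the elongation factor genes rest on 4 genes that were selected on such values.

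**Figure D4:**
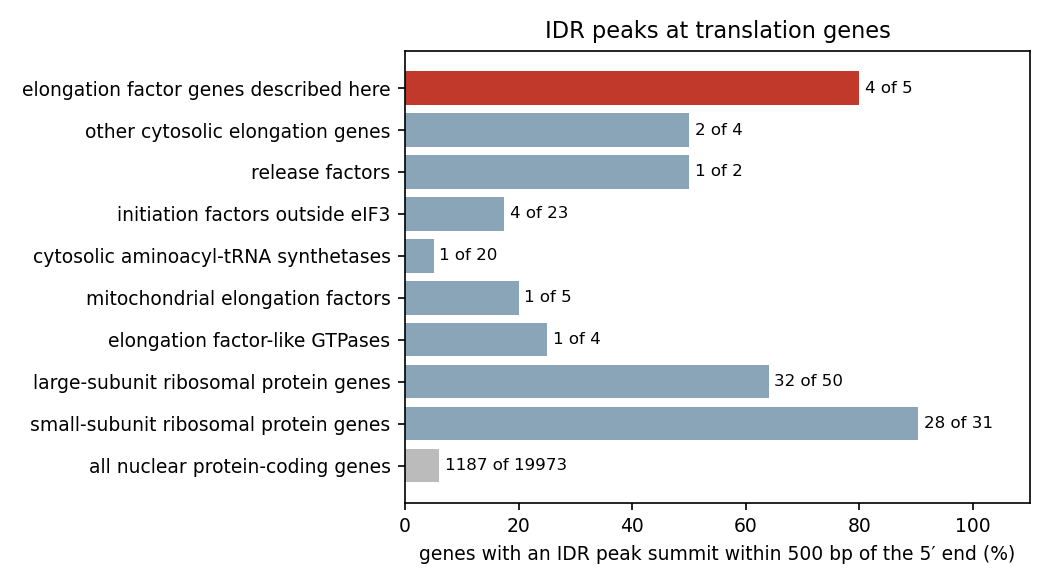
Share of genes with an IDR summit within 500 bp of the 5′ end (horizontal axis, %) for the elongation factor genes (red, 4 of 5), for other lists of translation genes (blue) and for all nuclear protein-coding genes (grey, 1187 of 19973), with the counts beside the bars. The shares of the small lists rest on 2 to 5 genes each.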

How the data were processed

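Peak lists from 2 ChIP-seq samples were used as deposited, on ce11. Per the submitters' deposited text notes, candidate regions were called for each replicate and for the pooled replicates against 1 control, and the IDR peaks derive from these 3 lists. The aligner, peak caller and IDR threshold are not stated here, and depth is unknown. The deposited lists give a signal value and a −log10 q-value per region, both by the authors. The lists on ce10 were not used, since the annotation and genome are of ce11.

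Summits were converted to 1-based positions and assigned to nuclear protein-coding genes of Ensembl release 115 (WBcel235) within 500 bp of the 5′ end, the strongest by signal per gene. Divergent neighbours are the nearest upstream 5′ ends on the other strand. Names were matched through the annotation and RefSeq. Software was Python 3.11.15, numpy 2.4.6, pandas 2.3.3 and matplotlib 3.10.9. The assignment was tested on simulated data. The genes and lists were chosen with earlier results of these data known, so no test was run. The other genes named are neighbours, short RNA genes, the 2 genes of nearest rank per member and up to 4 genes per list with the highest peaks, while ribosomal protein genes are given by counts. The genes efk-1, eef-1B.2, erfa-1, R03G5.6, F31E3.12, set-16, pab-1 and pab-2 were named after their values were seen. Alternatives were windows of 250 and 1000 bp, any overlap, all transcript starts, the 838 highest IDR peaks, each replicate alone, ranks without mitochondrial regions and other motif windows.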

Additional observations from a re-analysis of the deposited data

How the results depend on the processing

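The count of elongation factor genes with an IDR peak, 4 of 5, was 3 within 250 bp, where eef-1A.1 was lost, and 3 with the 838 highest peaks, where eef-1B.1 was lost. It was 4 within 1000 bp, with any overlap, with every transcript start and with either replicate alone. It was 2 without peaks near short RNA genes, a setting added after seeing the data. The share of all genes, 5.94%, was 3.68% within 250 bp, 7.78% within 1000 bp, 6.52% with any overlap, 6.31% with every transcript start, 2.96% with the 838 highest peaks and 4.98% without peaks near short RNA genes, and 5.10 to 5.79% with 1 replicate left out. With 1 replicate left out, the summit of eef-1G lay at -12 to 2 bp and that of eef-2 at -17 to 14 bp, so which side of the 5′ end these summits took depended on the replicate. The rank of eef-1G was 176 to 731 and that of eef-1A.2 was 7428 to 18777. With mitochondrial regions left out, eef-1A.1 ranked 45. Within 200 bp of the summit TATAAA was found at 3 of the 5 genes, against 45.4% of the 887 IDR peaks near 5′ ends, and TTTCAG at 2, against 61.4%. The cause of these shifts was not tested. Read depth is unknown, and no paired analysis was possible because there is a single group.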
